A study of Drosophila melanogaster with 9 samples.

Results

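A fed baseline translatome was described from 3 TRAP-seq libraries of fed AFCs (all follicle cells, in the name the paper uses), out of 9 samples in the series. They were chosen as every library labelled as well-fed main body follicle cells. The name follows the labels. Germline and midgut genes were also high in these libraries, so the levels and shares cannot be credited to follicle cells alone. No group was compared with another, and the values are absolute levels. All 3 libraries carry *GR1-Gal4* driving a GFP fusion of *RpL10Ab*, a protein of the large ribosomal subunit (the label spells the transgene UAS-Rpl10A-GFP). Before collection the flies had spent 3 days at 25°C on standard food and another 2 days with yeast paste, and about 100 flies were pooled for each library. The paper states that *GR1* is active in all follicle cells from stage 3 of oogenesis, stretch follicle cells (SFCs) included, and weakly in the gut, and the samples were thoraxes and abdomens rather than dissected ovaries. Ribosomes were pulled down with an antibody against GFP, and the polyadenylated RNA bound to them was sequenced.

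Follicle cells form the somatic epithelium around each egg chamber. In vitellogenic stages they secrete yolk proteins together with the fat body, and later they lay down the eggshell, first the vitelline membrane and then the chorion. Eggshell genes are switched on in short windows of egg chamber age, and the chorion genes are amplified in the follicle cell genome before their mRNA accumulates.

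The unit is TPM (transcripts per 1000000), in which the reads of a transcript are divided by the length that could have given a read, its effective length, and scaled to a total of 1000000 per library. TPM can therefore be compared between genes. It depends on how much of an mRNA was present and on how much of it was bound to tagged ribosomes, and in bulk material of this kind fewer cells of a type and less RNA per cell cannot be told apart. After 21 ribosomal RNA pseudogenes were left out, which held 12.6%, 2.86% and 25.6% of the TPM of libraries 1, 2 and 3, the remaining 14056 genes were scaled to that total again. They rested on about 38326200, 40967300 and 29308700 estimated reads. At an effective length of 1000 bases, 3 reads, the limit that a count of 0 allows, were worth 0.0411, 0.0370 and 0.0508 TPM. These limits cover counting error only.

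Library 1 stood apart from the others at low levels. It held 10391 genes at 1 TPM or more, against 7682 in library 2 and 7869 in library 3. A set of 2451 genes reached 1 TPM in library 1 alone, against 19 in library 2 alone and 18 in library 3 alone. These 2451 genes had a median of 1.46 TPM and together held 0.424% of the TPM of library 1. Among genes with transcripts of 1000 bases or more that had no read in libraries 2 and 3, 94.8% of 1216 had reads in library 1, with a median of 41.2 reads per 1000 bases. What these reads came from was not tested. Levels of a few TPM or less are therefore given for each library or as the range of a set in each library, and the count of genes below is given with and without library 1.

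In every library 7538 genes reached 1 TPM, 3966 reached 10 TPM, 739 reached 100 TPM and 144 reached 1000 TPM. Over libraries 2 and 3 alone the counts were 7556, 4024, 781 and 148, so the requirement that all 3 libraries agree kept the extra genes of library 1 out. The distribution was steep. The 10 genes with the highest mean TPM held 20.7% of the total, and 22.1%, 17.6% and 22.4% in libraries 1, 2 and 3. The 100 highest held 57.3%. Only 72 genes made up 50% of the mean TPM, and 1258 made up 90%.

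**Figure D1:**
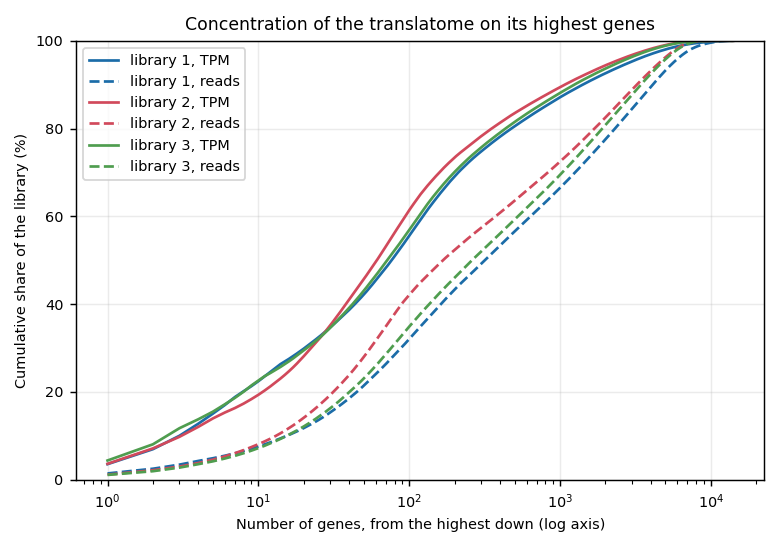
Cumulative share of each library (%) against the number of genes counted from the highest down (log axis), for TPM (solid lines) and for estimated reads (dashed lines), with a colour for each of the 3 libraries. On the TPM scale 72 genes held 50% of the mean, and on the read scale 250 genes did.

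*RpL41*, which encodes a very short protein of the large ribosomal subunit, had the highest mean level (FBgn0066084, chromosome 2R from 24903416 to 24903935 of BDGP6, minus strand). It was read at 34109, 35084 and 36884 TPM in libraries 1, 2 and 3 (35359 ± 1408, SD, n = 3). The uncharacterized gene *CG43965* followed at 35232, 26462 and 43529 TPM (35075 ± 8535). *RpL39*, another short ribosomal protein gene, was read at 30555, 36005 and 36726 TPM (34428 ± 3374). The ranges of these 3 genes overlapped, so their order is not resolved beyond the spread of the libraries, and all 3 lay above every other gene in the mean.

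*whe* came next with 27503, 8502 and 17307 TPM. *Cp15*, a major chorion protein gene, followed with 11409, 22725 and 16842 TPM (16992 ± 5659) and was the highest of the listed yolk and eggshell genes. *whe* and *Cp15* moved in opposite directions across the libraries, *whe* being lowest and *Cp15* highest in library 2. Below them came *CG34212* at 23010, 5259 and 20382 TPM, *RpL29* at 9982, 19165 and 14049 TPM, the metallothionein gene *MtnA* at 19556, 5843 and 14674 TPM, *CG43134* at 11198, 13446 and 14186 TPM and *CG45080* at 18194, 3906 and 9899 TPM. Library 2 was the lowest for *CG34212*, *MtnA* and *CG45080* and the highest for *RpL29*.

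**Figure D2:**
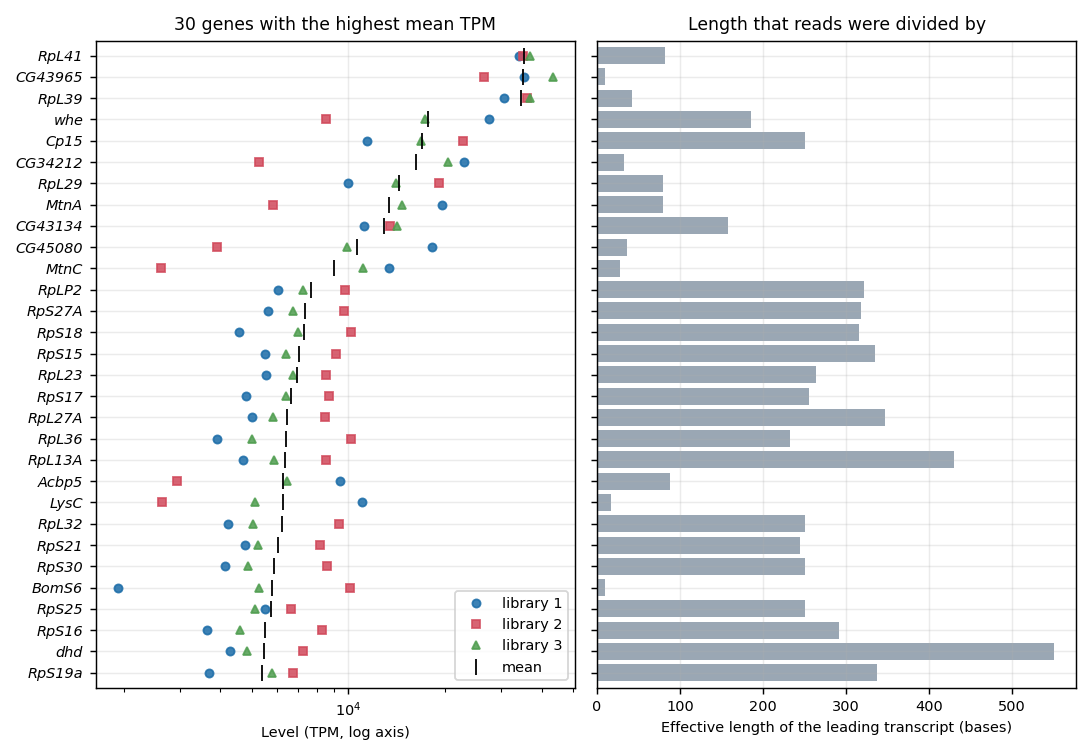
Left, level (TPM, log axis) of the 30 genes with the highest mean in each of the 3 fed libraries (coloured points) and the mean (black bar). Right, mean effective length of the leading transcript (bases), which runs from 9 bases for *CG43965* and *BomS6* to 550.0 bases for *dhd*.

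Ribosomal protein genes were 18 of the 30 highest genes. Among the other 12, *MtnC* encodes a metallothionein, *Acbp5* an acyl-CoA binding protein, *BomS6* a short peptide of the Bomanin family of the immune response and *LysC* is annotated as a pseudogene of the lysozyme cluster. The gene in the list that is best known from the germline was *dhd*, which encodes a thioredoxin of the female germline and egg. It was read at 4276, 7224 and 4857 TPM (5453 ± 1562) and ranked 29 by TPM and 8 by reads. Neighbours in this order were mostly not distinct. Of 29 pairs of neighbours, 28 had overlapping ranges, and only 2 pairs were in the same order in every library (*RpL39* above *whe*, the pair without overlap, and *RpLP2* above *RpS27A*). In 13 of the 30 genes the highest library was more than 2 times the lowest, and *BomS6* (1915, 10147 and 5288 TPM) and *MtnC* (13388, 2615 and 11087 TPM) differed most, by 5.30 and 5.12 times.

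The top of the list depended on transcript length. The leading transcripts of the 30 highest genes had a median length of 504.5 bases, against 1684 bases for all genes at 1 TPM or more in every library, and 7 of them were under 300 bases. For transcripts this short the effective length was far below the annotated one. *CG43965* is 193 bases long and was divided by 9 bases, so that 1 read was worth 1.52, 1.37 and 1.88 TPM in libraries 1, 2 and 3. For *Yp1* in library 2 a read was worth 0.0104 TPM. The 23164, 19311 and 23141 reads of *CG43965* were 0.0622% of reads on average and placed it at rank 225 by reads. *LysC* (242 bases, effective length 17) fell from rank 22 by TPM to rank 665 by reads, and *BomS6* (198 bases, effective length 9) from rank 26 to rank 1528.

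When the same reads were divided by the annotated length instead, a scale added after seeing the data, *RpL41* stayed first at 17561 ± 1322 per 1000000 and was followed by *Cp15* at 15897 ± 5005, *whe* at 14513 ± 7741 and *RpL39* at 9774 ± 1035. *CG43965* then stood at 3178 per 1000000 and rank 74. The 30 highest genes of the TPM scale and of the annotated-length scale shared 21 genes, those of the TPM and read scales shared 11, and 11 were shared by all 3 scales. *RpL41*, *Cp15* and *whe* were the 3 genes among the 10 highest on every scale.

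By reads, which weight long mRNAs, the yolk protein gene *Yp1* was the highest gene, with 1.01% of all reads, and *Yp3* the next, with 0.855%. *Cp15* held 0.839% of reads, and *eEF1alpha1*, the translation elongation factor that brings aminoacyl-tRNA to the ribosome, 0.790%. *RpL10*, *whe*, *sta*, *dhd*, *Yp2* and *RpL41* completed the 10 highest, and these 10 genes held 7.16% of reads. *sta* encodes a protein of the small ribosomal subunit.

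Lists of 27 functional classes were applied, with each gene in the first list that held it, and a remainder of protein-coding and of non-coding genes. Cytosolic ribosomal proteins were the largest named class. Nuclear genes of oxidative phosphorylation came next, and then ferritin and metallothioneins, major chorion proteins and digestive enzymes. Genes in no list held 39.0 ± 5.90% of TPM and 50.7 ± 4.37% of reads. Genes with only a CG or CR number for a symbol, 6263 of them, held 19.2 ± 3.99% of TPM. The order of classes depended on length in the same way as the order of genes, and classes of short mRNAs held more of the TPM than of the reads.

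**Figure D3:**
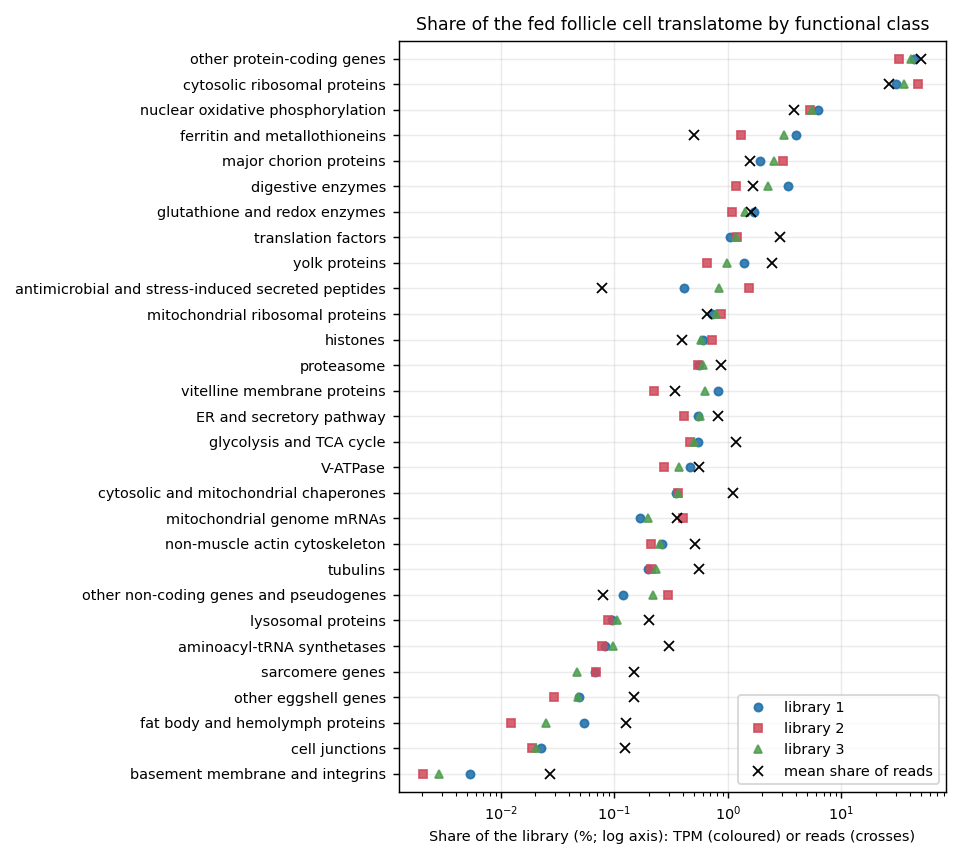
Share of each fed library (%, log axis) held by each functional class, as TPM in libraries 1, 2 and 3 (coloured points) and as the mean share of estimated reads (crosses). Cytosolic ribosomal proteins held 30.6% to 47.0% of TPM, and the points of library 2 lie apart from the others for metallothioneins and vitelline membrane proteins.

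The 90 genes of cytosolic ribosomal proteins, the protein part of the ribosome itself, held 30.6%, 47.0% and 35.5% of TPM in libraries 1, 2 and 3 (37.7 ± 8.45%) and 26.2 ± 6.45% of reads. The large subunit held 24.8 ± 4.88% and the small subunit 12.9 ± 3.58% of TPM. Library 2 was the highest for 75 of the 84 members with a mean of 1 TPM or more, so the class moved as a block between libraries. Its members fell into 2 sets with nothing between them. In every library 82 members were at 100 TPM or more, and their means ran from 1001 TPM for *RpS3* to 35359 TPM for *RpL41*, with a median of 3343 TPM. The other 8 members had means of 0.0715 to 85.8 TPM.

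The 8 low members are additional copies of genes in the high set. *RpS19b* was read at 0.138, 0.920 and 0.702 TPM, against 3695, 6716 and 5801 TPM for *RpS19a*. *RpS10a* was at 1.11, 0.308 and 0.213 TPM, against 2046, 4619 and 2361 TPM for *RpS10b*. *RpS28a* was at 2.49, 1.12 and 0.308 TPM, against 1725, 2843 and 1855 TPM for *RpS28b*. In each of these pairs 1 copy carried nearly all of the signal in every library. *RpL22-like* had 15 reads in library 1 and none in libraries 2 and 3, while *RpL22* was at 1154, 1535 and 1330 TPM. *RpL10Aa* had 17 reads in library 1 and none in the others. *RpL37-2* had 19, 2 and 0 reads, and *RpS28-like* 8, 1 and 3 reads. *RpS15Ab* was the highest of the 8 at 95.2, 70.5 and 91.8 TPM, against 1736, 2072 and 1921 TPM for *RpS15Aa*.

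Both copies were high for 3 further pairs. *RpS5b* was read at 1702, 2726 and 2111 TPM and *RpS5a* at 1328, 1510 and 1408 TPM, and their ranges did not overlap. *RpL34b* (1438, 3001 and 1807 TPM) lay above *RpL34a* (1005, 1507 and 1119 TPM) in each library, but the ranges overlapped. *RpS14a* (1750, 4202 and 2209 TPM) lay above *RpS14b* (769, 1559 and 907 TPM) without overlap. Copies with near-identical sequence share reads that Salmon divides by its own estimate, so the split within these pairs is uncertain. *RpL10Ab*, whose product carries the tag, was at 3611, 4546 and 4050 TPM (4069 ± 468) and ranked 49. Reads of the endogenous gene and of the transgene cannot be told apart in these values.

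Translation factors held 1.15 ± 0.0849% of TPM and 2.88 ± 0.320% of reads. *eEF1alpha1* led them at 1391, 2392 and 2019 TPM. *eEF1beta*, which recharges it, was at 1352, 1854 and 1365 TPM, and *eEF5*, which helps ribosomes through stalling peptides, at 1031, 1178 and 1242 TPM. The 18 aminoacyl-tRNA synthetases were far lower, with 0.0854 ± 0.00967% of TPM and a highest mean of 116 TPM for *TyrRS*. The 73 mitochondrial ribosomal proteins were all at 1 TPM or more in every library and held 0.788 ± 0.0731%, with *mRpL34*, *mRpL12* and *mRpL42* highest. Proteins of the mitochondrial ribosome thus had a median of 80.4 TPM, against 3179 TPM for those of the cytosolic one.

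Yolk protein genes encode the proteins that the oocyte takes up as its store. *Yp1* (FBgn0004045, X from 10053811 to 10055498) was read at 5967, 2405 and 4501 TPM (4291 ± 1790). *Yp2*, which lies 1174 bases away, was at 3454, 1373 and 2290 TPM (2372 ± 1043). *Yp3* was at 4464, 2752 and 3075 TPM (3430 ± 910). All 3 genes were highest in library 1 and lowest in library 2. Together they held 1.39%, 0.653% and 0.987% of TPM (1.01 ± 0.368%) and 2.45 ± 0.856% of reads. The fat body is another known source of yolk proteins, and its part in these levels was not tested.

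The 9 major chorion protein genes lie in 2 clusters, and the autosomal cluster was the higher. *Cp15* (FBgn0000355, 3L from 8728481 to 8729066, plus strand) was followed by its neighbours *Cp19* at 2548, 2496 and 3005 TPM, *Cp18* at 1791, 2388 and 2189 TPM and *Cp16* at 1009, 1387 and 1342 TPM. *Cp15* was more than 3 times the next chorion gene in every library. On the X, *Cp36* was at 1369, 1041 and 1278 TPM and *Cp38* at 781, 462 and 644 TPM. The other X-linked members of the cluster, *Cp7Fa*, *Cp7Fb* and *Cp7Fc*, had means of 75.5, 51.3 and 31.2 TPM. The class held 1.91%, 3.06% and 2.55% of TPM (2.51 ± 0.575%). Library 2 was the highest for *Cp15*, *Cp16* and *Cp18* and the lowest for the other 6, so the high share of library 2 rested on *Cp15*.

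All 6 vitelline membrane genes were lowest in library 2, as were 6 of the 9 chorion genes. Among protein-coding genes in no list with a mean of 1 TPM or more, 4275 of 7451 were lowest there. The chorion count is thus near the share of genes at large. *Vm26Aa* was read at 2611, 796 and 2118 TPM, *Vm34Ca* at 2753, 376 and 1529 TPM and *Vm32E* at 1288, 650.0 and 1337 TPM. *Vm26Ab* was at 1310, 315 and 1128 TPM. *Vm26Ac* and *Vml* were lower, with means of 102 and 36.9 TPM. The class held 0.812%, 0.222% and 0.628% of TPM (0.554 ± 0.302%), a 3.65-fold span. Other eggshell genes, such as *Femcoat* (111, 68.8 and 106 TPM), the vitelline membrane cross-linking genes *yellow-g2* (87.4, 41.9 and 86.1 TPM) and *yellow-g* (66.7, 48.9 and 77.2 TPM) and *dec*, which encodes structural eggshell proteins (51.7, 30.7 and 49.1 TPM), held 0.0419 ± 0.0110%. Of these 15 genes, 11 were at 1 TPM or more in every library. All 30 eggshell genes together held 2.77%, 3.31% and 3.22% (3.10 ± 0.289%), a smaller fold span than that of each of the 3 classes. In this sum *Cp15*, which was highest in library 2, offset the vitelline membrane genes, which were lowest there.

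**Figure D4:**
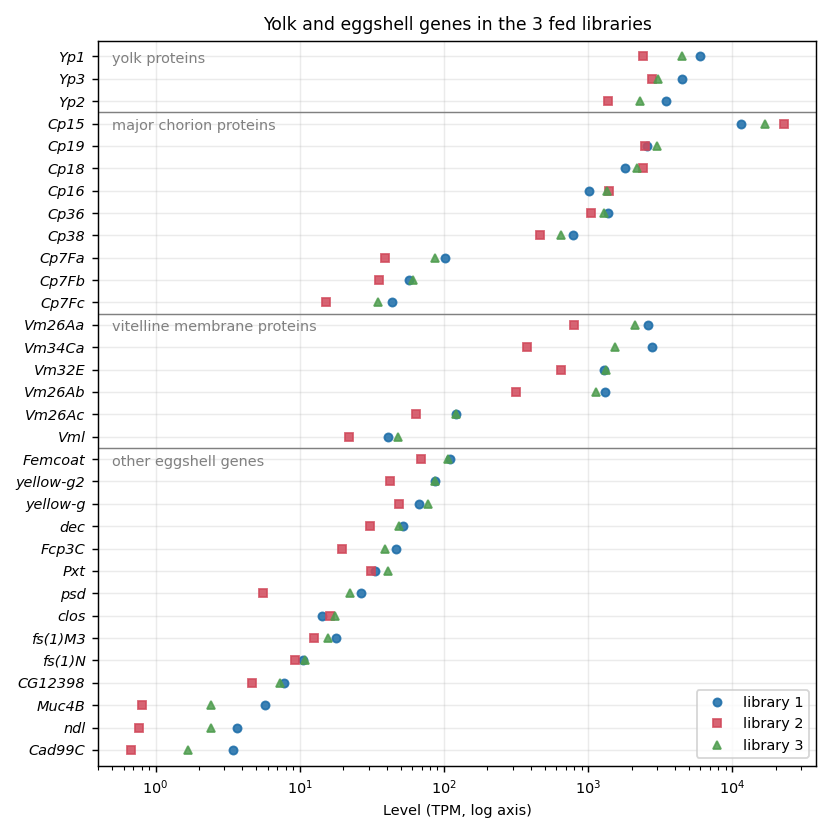
Level (TPM, log axis) of yolk and eggshell genes in the 3 fed libraries, grouped by class and ordered by mean level (*Pxd*, with a mean of 0.203 TPM, is left out). Library 2 (squares) is lowest for all 3 yolk genes and all 6 vitelline membrane genes, and highest for *Cp15*.

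Among genes of mitochondrial and carbon metabolism, only the nuclear genes of oxidative phosphorylation held a large share. The 94 nuclear genes of oxidative phosphorylation held 6.20%, 5.26% and 5.54% of TPM (5.67 ± 0.486%) and 3.83 ± 0.300% of reads, the smallest span among the 5 named classes with the largest shares. *UQCR-6.4*, a subunit of complex III, was at 3232, 3431 and 3323 TPM, *COX7B*, of complex IV, at 3320, 3142 and 3168 TPM and *cype*, also of complex IV, at 2657, 2298 and 2593 TPM. The 13 mRNAs of the mitochondrial genome held much less, 0.167%, 0.401% and 0.199% (0.256 ± 0.127%). They are translated by mitochondrial ribosomes, which do not contain RpL10Ab. *mt:CoII* led at 666, 1254 and 859 TPM, and 11 of the 13 were highest in library 2. Glycolysis and the TCA cycle held 0.504 ± 0.0427% in 27 genes, led by *Tpi* (674, 656 and 632 TPM) and the glyceraldehyde phosphate dehydrogenase genes *Gapdh1* (609, 582 and 533 TPM) and *Gapdh2* (426, 551 and 448 TPM).

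The totals of chaperones and of the proteasome were even across libraries, whereas the ER and secretory class was lower in library 2. Chaperones held 0.347%, 0.366% and 0.366%, with *Hsc70-4* highest (825, 764 and 818 TPM), then the small heat shock gene *Hsp26* (475, 976 and 635 TPM) and *Hsp83* (394, 356 and 414 TPM). The proteasome held 0.570 ± 0.0279%. Its highest gene was *Prosalpha3* at 393, 438 and 445 TPM. *Prosalpha1R*, a copy of an alpha subunit gene, followed at 335, 454 and 425 TPM and *Prosalpha2* was at 413, 326 and 438 TPM. The 58 genes of the ER and secretory pathway were all at 1 TPM or more in every library and held 0.549%, 0.408% and 0.570% (0.509 ± 0.0881%). *Sec61beta* and *Sec61gamma*, subunits of the translocation channel, were at 960, 484 and 935 TPM and at 519, 273 and 417 TPM. *Spase12*, of the signal peptidase, was at 434, 282 and 432 TPM. These 3 genes were lowest in library 2, as were 44 of the 58 genes. Of 7451 protein-coding genes in no list with a mean of 1 TPM or more, 4275 were also lowest there. Shares of a library add up to a fixed total, so classes are not independent of each other. Library 2 was also lowest for the secreted yolk and vitelline membrane proteins.

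Acidification and lysosomal genes are of interest in this tissue because stretch follicle cells acidify dying nurse cells. V-ATPase subunits held 0.465%, 0.271% and 0.372% of TPM (0.369 ± 0.0969%). *Vha13* was highest at 2266, 1286 and 1760 TPM and was followed by *Vha14-1* at 997, 513 and 753 TPM and *VhaM9.7-b* at 312, 213 and 300 TPM. Of 34 annotated subunit genes, 19 were at 1 TPM or more in every library, and the median of the list was 11.9 TPM. Lysosomal proteins held 0.0960 ± 0.00884%. *Npc2a*, a sterol carrier of the lysosome lumen, was at 292, 378 and 374 TPM, the cathepsin gene *CtsK1* at 156, 137 and 215 TPM and *CtsL1* at 77.6, 85.9 and 103.7 TPM.

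Cytoskeleton genes were led by *tsr* and by tubulins. *tsr*, which encodes the actin-severing protein cofilin, was at 837, 698 and 697 TPM, *Act5C*, a cytoplasmic actin, at 423, 291 and 433 TPM and *Arpc4*, a subunit of the Arp2/3 complex, at 280, 267 and 293 TPM. *alphaTub84B* was at 847, 875 and 1003 TPM, *betaTub56D* at 699, 724 and 771 TPM and *alphaTub67C*, a maternal alpha-tubulin, at 285, 364 and 369 TPM. Genes of cell junctions and of the basement membrane were the lowest classes. Junction genes held 0.0206 ± 0.00184%, with *arm*, the fly beta-catenin, at 71.4, 73.2 and 80.7 TPM, *nrv1* at 23.4, 26.5 and 25.9 TPM and *aPKC* at 14.5, 11.2 and 13.5 TPM. Basement membrane and integrin genes held 0.00342 ± 0.00170%, and 5 of 17 were at 1 TPM or more in every library, led by *SPARC* at 13.4, 8.14 and 11.2 TPM. *PH4alphaPV* followed at 6.89, 2.07 and 5.8 TPM and *scb*, an integrin alpha subunit, at 3.99, 2.27 and 2.74 TPM.

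Metallothioneins bind copper, zinc and other metals, and their mRNAs are among the shortest in the genome. With ferritin they held 4.01%, 1.31% and 3.11% of TPM (2.81 ± 1.37%) but 0.4997 ± 0.192% of reads. Beside *MtnA* and *MtnC*, *MtnD* was at 3199, 2181 and 2636 TPM, *MtnE* at 1502, 1128 and 1098 TPM and *MtnB* at 1673, 768 and 848 TPM. The ferritin subunit genes *Fer1HCH* (634, 522 and 680.1 TPM) and *Fer2LCH* (123.5, 70.6 and 107 TPM) lay below all of them. *Fer3HCH* had no read in libraries 2 and 3. Among redox genes, *GstD1*, a glutathione transferase, was at 5914, 3679 and 5156 TPM, *Sod1*, the cytosolic superoxide dismutase, at 1381, 1188 and 1229 TPM and *GstD2* at 1405, 1060 and 982 TPM.

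Antimicrobial and stress-induced peptides were highest in library 2, at 0.408%, 1.54% and 0.834% of TPM (0.926 ± 0.570%), and 28 of its 39 members with a mean of 1 TPM or more were highest in library 2. *BomS3* (459, 1101 and 593 TPM) and *BomS5* (257, 968 and 587 TPM) followed *BomS6*. The class held only 0.0780 ± 0.0281% of reads, and its leading mRNAs are very short. Its mean share fell to 0.247% of TPM without transcripts under 300 bases, *BomS6* among them, and to 0.210% with reads over annotated length. Histones held 0.634 ± 0.0776%. *His2A:CG33838* (1846, 3759 and 2055 TPM) and *His4:CG33883* (344, 841 and 481 TPM) are members of the repeated histone unit, so their split from the other copies is uncertain, whereas *His4r*, a histone gene outside it, was at 2693, 1837 and 2422 TPM. Non-coding genes and pseudogenes held 0.212 ± 0.0897%, led by the histone pseudogene *His-Psi:CR33811* (201, 1907 and 1440 TPM).

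The labelled cell type was checked against marker lists, and the outcome was mixed. Fewer of the follicle cell markers reached 1 TPM in every library than of the germline markers (15 of 16) or midgut markers (18 of 18). Of 13 follicle cell markers, 5 were at 1 TPM or more in every library (*Yp1*, *Sox14*, *ttk*, *tj* and *Hr39*), and only *Yp1* was above 100 TPM. *tj*, the transcription factor that marks somatic cells of the ovary, was at 5.996, 2.18 and 7.62 TPM. *Sox14*, a target of ecdysone signaling, was at 13.2, 17.9 and 18.6 TPM. *ttk* was at 11.7, 9.23 and 8.81 TPM and *Hr39*, a nuclear receptor, at 5.65, 5.01 and 4.46 TPM. *br*, which patterns the dorsal appendages, was at 3.04, 0.392 and 0.973 TPM, and *eya*, *mirr*, *ct*, *slbo*, *Mmp2*, *Fas3* and *Cad99C* lay between 0.298 and 3.47 TPM in library 1, between 0.0470 and 0.779 TPM in library 2 and between 0.0379 and 1.68 TPM in library 3. The transcription factors of the list were thus below 20 TPM in every library, a level that several of the other eggshell genes did not reach either.

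Of 11 SFC markers, *Vha16-1* (103, 100.3 and 107 TPM), *Vha100-2* (49.9, 28.95 and 46.2 TPM) and *Past1* (15.3, 12.2 and 17.1 TPM) were above 10 TPM in every library. *Vha16-1* and *Vha100-2* are V-ATPase subunits that many cell types express. *kay*, the fly Fos, was at 6.66, 3.46 and 5.73 TPM, *puc*, a phosphatase of the JNK pathway, at 5.45, 3.58 and 3.38 TPM and *drpr*, the engulfment receptor, at 4.86, 2.81 and 3.76 TPM. *peb*, *trol*, *eya*, *cv-2* and *dpp* lay between 0.600 and 2.81 TPM in library 1, between 0.225 and 0.757 TPM in library 2 and between 0.152 and 1.12 TPM in library 3. The summed level of the list was 194, 153 and 186 TPM.

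Germline markers were present throughout. All of 16 except *bam* were at 1 TPM or more in every library, and their summed level was 615, 785 and 612 TPM. *pgc*, which represses transcription in primordial germ cells, was at 360.1, 503 and 396 TPM. *osk*, the determinant of the posterior germ plasm, was at 89.2, 118 and 82.2 TPM. *vas*, *nanos* and *otu* had means of 26.2, 25.3 and 16.4 TPM, *mael*, *AGO3*, *aub* and *orb* means of 11.6 to 15.003 TPM, and *bcd*, *ovo*, *grk*, *stau*, *spn-E* and *tud* levels of 3.66 to 9.75 TPM in library 1, 2.73 to 11.6 TPM in library 2 and 2.46 to 7.45 TPM in library 3. *bam*, which is limited to early germ cells, was at 2.02, 1.16 and 0.798 TPM. The median of the list was 10.6, 13.7 and 11.7 TPM in libraries 1, 2 and 3, against 3.04, 0.673 and 0.973 TPM for the follicle cell list. In sum the follicle cell list was the higher, at 6017, 2442 and 4545 TPM, nearly all of it from *Yp1* (5967, 2405 and 4501 TPM). The *GR1* driver is not described as active in the germline, and how much of this signal came from tagged ribosomes was not tested, since input or mock precipitations were not analysed here.

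Midgut genes were the highest of the marker lists. All 18 were above 10 TPM in every library, and 13 were above 100 TPM in every library. *LysD*, a digestive lysozyme, was at 6296, 1454 and 3692 TPM, *alphaTry*, a trypsin, at 3099, 1697 and 2772 TPM, *betaTry* at 1844, 654 and 1560 TPM and *Jon25Bi*, a digestive serine protease, at 1220, 632 and 907 TPM. The list summed to 18269, 7031 and 13741 TPM. The wider class of 49 digestive enzyme genes held 3.35%, 1.19% and 2.25% of TPM (2.26 ± 1.08%), and 1.66% in the mean when *LysC* and other genes that are not protein-coding were left out of the total. The marker list was chosen with earlier results of these data known, and its median was 351 TPM. The median of the wider class was 51.8 TPM, with 17 of its 49 genes at 100 TPM or more in every library. In this class 39 of its 46 members with a mean of 1 TPM or more were lowest in library 2. Among such protein-coding genes in no list, 4275 of 7451 were. The paper gives weak *GR1* activity in the gut. Most gut genes were thus lowest in the library in which the yolk and vitelline membrane genes were lowest too.

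Other tissues were lower. Fat body markers summed to 530.2, 117 and 242 TPM, nearly all of it from *Lsp2* (245, 45.6 and 95.0 TPM), *Tsf1* (154, 48.5 and 101 TPM) and *Lsp1beta* (117, 21.4 and 42.1 TPM). The remaining 6 fat body genes lay between 0.477 and 8.03 TPM in library 1, between 0.00550 and 0.971 TPM in library 2 and at or below 3.08 TPM in library 3, where 3 of them had no read. Malpighian tubule markers summed to 318, 112 and 165 TPM, led by *Uro* (258, 84.2 and 122.6 TPM), the urate oxidase gene. *ZnT35C* and *NaPi-T* followed with means of 29.8 and 10.3 TPM, and *Irk3* was at 4.60, 2.11 and 1.71 TPM. Both lists were highest in library 1 and lowest in library 2, as were the yolk genes, but this order was common. The midgut, hemocyte, neuron and male lists had it too, whereas the germline, muscle and receptor lists did not. Of 7451 protein-coding genes in no list with a mean of 1 TPM or more, 4243 were highest in library 1. In the same set 4275 were lowest in library 2. Muscle markers summed to 207.1, 191 and 120 TPM, with *Mlc2* (80.8, 75.5 and 41.1 TPM), *TpnC4* (29.9, 35.8 and 23.2 TPM) and *Act57B* (25.1, 20.0 and 14.0 TPM) highest, and the 28 sarcomere genes, led by *Mf*, *Mlp60A* and *Mlc2*, held 0.0614 ± 0.0126% of TPM.

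Hemocyte markers summed to 18.8, 7.39 and 8.26 TPM, with the prophenoloxidase genes *PPO2* and *PPO1* highest. Markers of the spermatheca and female tract summed to 12.8, 3.51 and 3.98 TPM. All 9 neuron markers were below 1 TPM in every library, and summed to 4.91 TPM in library 1, 0.276 TPM in library 2 and 0.375 TPM in library 3. Of 16 male reproductive genes, 14 had no read in at least 1 library, and only *Mst87F* was at 1 TPM or more in every library (5.56, 2.57 and 3.93 TPM). The male list summed to 16.2, 2.99 and 4.17 TPM. *SP*, *Acp95EF* and *Acp53Ea* had no read in any library, where 3 reads would have been 3.16, 2.28 and 0.188 TPM in library 1. Apart from *Mst87F*, the male genes were at or below 0.218 TPM in libraries 2 and 3, and the neuron genes at or below 0.146 TPM. All 9 neuron genes and 13 of the 16 male genes had reads in library 1.

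**Figure D5:**
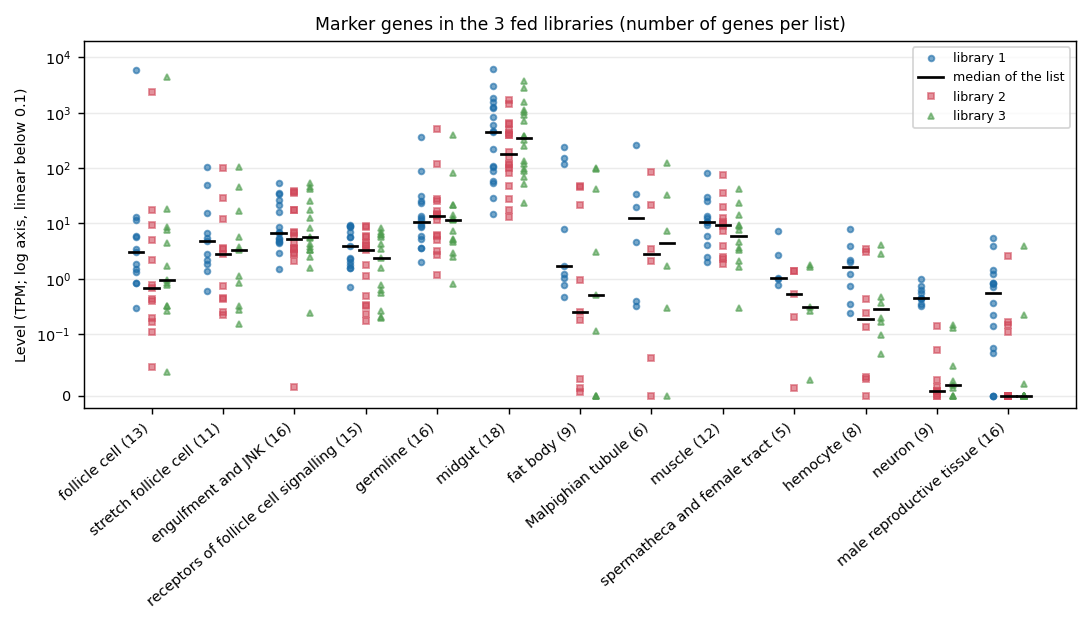
Level (TPM, log axis that is linear below 0.1) of every gene of the 13 marker lists in the 3 fed libraries, with the number of genes in brackets and the median of each list as a black bar. Midgut genes are the highest list. Germline genes have a higher median than follicle cell genes. Their sum is lower, but nearly all of the follicle cell sum comes from *Yp1* alone. Neuron and male genes other than *Mst87F* are near 0 in libraries 2 and 3.

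Receptors through which follicle cells are patterned were all below 10 TPM. *sax* and *put*, receptors of the BMP pathway, were at 9.18, 8.86 and 8.17 TPM and at 9.06, 8.60 and 6.23 TPM. *Tl*, the Toll receptor, was at 8.67, 6.02 and 7.04 TPM, *usp*, the partner of the ecdysone receptor, at 9.52, 4.40 and 5.62 TPM and *dome*, the JAK/STAT receptor, at 7.09, 5.62 and 6.50 TPM. *fz*, *babo*, *tkv*, *EcR*, *N*, *smo*, *Egfr*, *Pvr*, *btl* and *InR* lay between 0.715 and 5.71 TPM in library 1, between 0.171 and 4.02 TPM in library 2 and between 0.195 and 4.23 TPM in library 3. Of these 15 receptors, 9 were at 1 TPM or more in every library. *Egfr*, for example, was at 1.81 TPM in library 1 but at 0.318 and 0.546 TPM in libraries 2 and 3.

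Of the genes of engulfment and of the JNK pathway, 15 of 16 were at 1 TPM or more in every library. *Crk*, an adaptor of the engulfment pathway, was at 53.8, 36.4 and 53.9 TPM, *ced-6*, the adaptor of *drpr*, at 35.7, 38.3 and 46.0 TPM and *Jra*, the fly Jun, at 34.8, 36.2 and 41.5 TPM. *Rac1* was at 26.8, 17.4 and 25.6 TPM, the scavenger receptor gene *crq* at 21.3, 17.5 and 17.2 TPM and *bsk*, the JNK itself, at 16.1, 6.05 and 12.3 TPM. These 6 genes, the highest of the list, were all above the receptor *drpr* in every library. By mean, *Shark*, *Src42A*, *kay*, *hep* and *puc* also lay above *drpr*, whereas *Ced-12*, *Rac2*, *mbc* and *NimC4* lay below it. *Shark*, *Src42A*, *hep*, *Ced-12*, *Rac2* and *mbc* lay between 2.90 and 8.58 TPM in library 1, between 2.07 and 7.01 TPM in library 2 and between 1.59 and 8.16 TPM in library 3. *NimC4* was the lowest, with 108, 1 and 13 reads.

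Length set a trend across the whole translatome. Genes whose leading transcript was under 300 bases were 131 of 14056 and held 13.4 ± 2.61% of TPM but 0.755 ± 0.164% of reads. Genes of 500 to 1000 bases held 46.5 ± 5.75% of TPM and 38.9 ± 4.56% of reads. Genes of 4000 bases or more, 1549 of them, held 0.560 ± 0.111% of TPM and 5.53 ± 1.03% of reads. Long genes were detected at least as often as short ones, with 50.7% of those of 4000 bases or more and 45.0% of those of 500 to 1000 bases at 1 TPM or more in every library. Across the 7538 genes at 1 TPM or more, level and length had a Spearman correlation of -0.54, -0.53 and -0.53 in libraries 1, 2 and 3, where both share the division by length. The read count and length had correlations of 0.05, -0.02 and -0.02. These values are across genes, which are not independent.

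The 100 highest genes were shorter than the rest but had no fewer exons. Their leading transcripts had a median of 608.5 bases and 3 exons, and all genes at 1 TPM or more had a median of 1684 bases and 3 exons. Of the 3966 genes at 10 TPM or more in every library, 2221 have 2 or more annotated transcripts. The same transcript led in all 3 libraries for 1942 of these (87.4%), and the median share of the leading transcript was 89.2% of its gene. Exceptions were found among the highest genes. For *RpL29* the leading transcript held 43.8%, 37.2% and 34.8% of the gene, and for *RpS21* 51.8%, 46.1% and 56.4%.

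By position, the chromosome arms did not share the total in proportion to their genes. Arm 2R, with 20.4% of genes, held 28.9 ± 1.59% of TPM, with *RpL41* and *RpL39* on it. The excess of 2R rested in part on these short mRNAs, whose TPM depend on short effective lengths. Shares of reads by arm were not computed. Arm 3R, with 24.4% of genes, held 20.4 ± 1.66%, and 3L, with 19.6% of genes, held 20.6 ± 0.468%. The X held 15.6 ± 0.546% with 15.7% of genes. Arm 2L held 14.0 ± 0.846% with 18.5% of genes. None of 80 genes of the Y was at 1 TPM or more in every library.

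Among the 100 highest genes, 9 pairs lay within 10000 bases of each other. Besides *Yp1* with *Yp2*, the chorion genes *Cp15* and *Cp19* (798 bases apart) formed such a pair. *CG43965*, from 8725520 to 8725774 on 3L, lay 2706 bases before *Cp15*, with *Cp18* as the only gene between them, so that the second-ranked gene by TPM sits at the edge of the chorion cluster. It lies within *CG6511*, which is on the other strand. *whe* and *lcs* (8367, 1845 and 5075 TPM) lay 5022 bases apart on the X, with 2 genes between them, and both were highest in library 1 and lowest in library 2. Of the 30 highest genes, 12 overlap another annotated gene. The library kit does not mark strand, so reads of *CG43965* and of *CG6511* cannot be told apart by strand.

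The 3 libraries ranked genes similarly. Over 13734 genes with a read, the Spearman correlation of TPM was 0.928 for libraries 1 and 2, 0.936 for libraries 1 and 3 and 0.975 for libraries 2 and 3, as a description across genes. Among the 7538 genes at 1 TPM or more in every library, 84.5%, 94.5% and 93.7% of genes were within a factor of 2 in these pairs. The spread of a gene between libraries was smallest in the middle of the range. The median coefficient of variation was 27.9% for genes with means of 1 to 10 TPM, 14.3% from 10 to 100 TPM, 15.7% from 100 to 1000 TPM and 24.3% above 1000 TPM. At the top library 2 was the highest for 55.5% of 173 genes, with the ribosomal proteins among them, and at 1 to 10 TPM library 1 was the highest for 74.5% of 3903 genes.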

How the data were processed

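TRAP-seq libraries of fed AFCs were analysed, 3 biological replicates, and the other 6 samples were not used here. The authors removed adapters (the submitters' processing notes name bcl2fastq 2.2 and cutadapt) and quantified single-end reads of 75 bases per transcript with Salmon 1.1.0 against a BDGP6 annotation, with automatic library type, GC-bias correction and selective alignment. The authors deposited TPM as Salmon computed them. The estimated counts were deposited by the authors beside them, not normalized and not whole. Annotated and effective lengths were deposited in the same files.

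TPM were summed per gene through the transcript identifiers of Ensembl BDGP6.54 (release 115), which matched 30179 of 30215 transcripts, 30171 of them with the same length. The other 36 held 0.0231% to 0.0326% of TPM and were left out. Genes, coordinates, strands and overlaps are those of that annotation. Then 21 rRNA pseudogenes were removed and the rest was scaled to a total of 1000000, giving the mean and SD over 3 libraries. No pseudocount, filter on low values or test was used, because a single group has nothing to be compared with. The spread is that of 3 pools of flies. Summing and scaling were tested on simulated transcripts. Python 3.11.15, pandas 2.3.3, numpy 2.4.6 and matplotlib 3.10.9 were used. The library kit does not mark strand, so reads shared by overlapping genes cannot be told apart by strand.

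Genes were named by a rule: the 30 highest by mean TPM, the 3 highest of each class, every marker gene, *RpL10Ab*, and members of a class below 3 reads. Depth was about 29308700 to 40967300 estimated reads a library. Genes named for their rank by reads or by annotated length, second copies of ribosomal protein genes, other members of the yolk, eggshell, metallothionein and digestive classes, and *lcs* and *CG6511* were chosen after their values were seen. The members and lists were chosen with earlier results of these data known, and symbols in the lists were updated to the annotation after the files were read. The alternatives were deposited TPM, a total of nuclear protein-coding genes, reads, transcripts under 300 bases left out, the median, genes under 1 TPM left out, each library left out in turn and the 10 highest genes left out. Reads over annotated length were added after seeing the data.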

Additional observations from a re-analysis of the deposited data

How the results depend on the processing

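The scale mattered most. By estimated reads, 250 genes rather than 72 held 50% of the total, the 10 highest genes held 7.16%, ribosomal proteins 26.2%, oxidative phosphorylation 3.83%, ferritin and metallothioneins 0.4997%, major chorion proteins 1.57% and yolk proteins 2.45%. With reads over annotated length, 109 genes held 50%, the 10 highest held 10.5%, ferritin and metallothioneins 1.18% and yolk proteins 1.52%. Without rescaling of the deposited TPM, the 10 highest held 17.7% and oxidative phosphorylation 4.88%. Without transcripts under 300 bases these were 16.1% and 6.43%. Without the 10 highest genes, the next 10 held 8.95%, major chorion proteins 1.02% and oxidative phosphorylation 7.16%. The shares of vitelline membrane proteins and digestive enzymes, and the number of genes at 1 TPM or more (7396 to 7904 where it could be computed, which excludes the read scale), stayed within 1 SD or 1.5 times under every alternative run. For vitelline membrane proteins (0.554 ± 0.302%) and digestive enzymes (2.26 ± 1.08%) the SD was wide, so staying within it says little. Their shares ran from 0.342% to 0.720% and from 1.66% to 2.88% across the alternatives. A total of nuclear protein-coding genes and the removal of genes under 1 TPM moved no class share by 1 SD. Neither the median nor a mean with 1 library left out can move a share by 1 SD, so these alternatives could not test that limit.

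Leaving out each library in turn gave 7556 to 7833 genes at 1 TPM or more, 68 to 75 genes holding 50%, 19.9% to 22.3% in the 10 highest, 33.0% to 41.3% in ribosomal proteins, 0.425% to 0.720% in vitelline membrane proteins, 0.820% to 1.19% in yolk proteins and 1.72% to 2.80% in digestive enzymes. No paired analysis was possible because a single group was described and no test was made.

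With 3 libraries, errors are wide for the classes in which library 2 differed. The 2451 genes that reached 1 TPM in library 1 alone had a median of 1.46 TPM there and a highest level of 37.9 TPM. The 19 and 18 such genes of libraries 2 and 3 had highest levels of 24.7 and 31.9 TPM. Below 1 TPM, such genes can still have reads in the other libraries. Effective lengths of 9 to 42.3 bases make the TPM of the shortest mRNAs depend on Salmon's length model. Input RNA was not analysed here, so enrichment by the precipitation was not measured.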

Other observations

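Outside the classes, several genes with high levels were found after their values were seen. *Rack1*, a scaffold protein of the small ribosomal subunit, was at 1713, 2394 and 2062 TPM, close to *eEF1alpha1*, and *awd*, a nucleoside diphosphate kinase, was at 3734, 5139 and 3914 TPM. *Arc1*, whose protein forms capsid-like particles, was at 888, 1017 and 657 TPM. *sun*, which encodes the epsilon subunit of the ATP synthase and was in no list, was at 2304, 2784 and 2401 TPM. These 4 genes were highest in library 2, like the ribosomal proteins.

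Maternal and oocyte genes were found beyond the germline list. *CycB*, the mitotic cyclin B, was at 369, 439 and 472 TPM, *me31B*, an RNA helicase of maternal RNA particles, at 306, 435 and 313 TPM and *yl*, the yolk protein receptor of the oocyte, at 81.2, 48.3 and 98.4 TPM. Each lay far above *tj* and far below *Yp1* and *Cp15* in every library. How much of their signal came from tagged ribosomes was not tested.

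A further group was lowest in library 2 by a wide margin. *Pebp1* was at 4279, 508 and 1933 TPM, *CG16826* at 2688, 484 and 859 TPM and *Mur18B* at 1148, 471 and 722 TPM. The order of libraries was that of the 3 yolk genes. It was a common order, as 4275 of 7451 protein-coding genes in no list with a mean of 1 TPM or more were lowest in library 2.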
